A study of Mus musculus with 8 samples.

Results

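The renin-angiotensin system is a hormone cascade that raises blood pressure and sodium retention. Renin cuts angiotensinogen, an abundant protein of the serpin family, and angiotensin-converting enzyme trims the product to angiotensin II. This peptide acts on AT1 receptors, which contract vessels and promote growth and matrix deposition in the heart, and on AT2 receptors, which largely oppose them. A second arm turns angiotensin II into a shorter peptide whose receptor is the product of Mas1. Angiotensinogen comes mainly from liver, and heart, fat and brain make it as well.

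Here 6 genes of this system were followed in mouse hearts: the precursor Agt, the enzymes Ren1 and Ace, and the receptors Agtr1a, Agtr1b and Agtr2. Mice have a pair of AT1 receptor genes, and C57BL/6J mice carry a single renin gene. The genes were found on the array by matching the accession of every non-control probe to a symbol, which gave 9 probes for the 6 genes, out of 41174 probes and 18217 named genes. Agt, Agtr1b and Agtr2 had 1 probe each, and Ace, Agtr1a and Ren1 had 2 each.

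Hearts came from 4 fasted mice, kept without food but with water for 2 days, and from 4 satiated mice on a standard pellet diet. All were male C57BL/6J mice, an inbred laboratory strain, 9 weeks old. Each heart's total RNA was labelled with Cy3 and put on 1 one-colour Agilent mouse array, so p-values measure the spread between 4 hearts per group, and the number of arrays limits the precision of every value. The arrays lay on 2 slides, with replicates 1 and 2 of both groups on slide 1 and replicates 3 and 4 on slide 2.

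Values are log2 signals relative to the 75th percentile of the array, so a value of 1 marks a signal at 2 times that percentile. Probes differ in how well they bind, so levels are compared between hearts and never between probes. Between 66.7% and 68.9% of probes were well above background on slide 1, and between 54.4% and 55.6% on slide 2. All 7 cardiomyocyte markers were well above background on all 8 arrays. Of the 7, Actc1 was lower in fasted hearts by the test described below (log2 fold change -1.64), and the others did not pass it. In whole hearts, fewer cells of a type and less RNA per cell cannot be told apart.

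Agt rose in the fasted hearts, and no other of the 6 genes followed passed the test. Of the 6 genes, 4 had a probe that stood well above background in 4 or more of the 8 hearts and entered the test. Of these, 1 (Agt) changed, beside 20.2% of all 20203 genes and unnamed probes tested (9.82% higher and 10.3% lower in fasted hearts). The test was limma with Benjamini-Hochberg adjustment over all 20203, and a change had to reach an adjusted p under 0.05.

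Agt had log2 values of 1.08, 2.01, 1.83 and 1.45 in fasted replicates 1 to 4, against 0.06, 0.33, 0.23 and 0.45 in satiated replicates 1 to 4. Every fasted heart lay above every satiated heart. Groups that did not overlap, in either direction, were seen for 27.6% of all tested genes and probes. The fasted hearts were also the more spread out, with a mean of 1.59 ± 0.42 against 0.27 ± 0.16 (SD, n = 4 each). The log2 fold change was 1.33 ± 0.21 (SE), or 2.51-fold, with a limma adjusted p of 0.00451 and a 95% interval of 0.85 to 1.81. In unscaled scanner intensity the probe read 1265 to 2741 in fasted hearts, against 573.5 to 1145 in satiated hearts.

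Among 13816 named genes tested, 2.25% had a higher fold change than Agt. Of the 1459 named genes that rose, 289 rose by more. The difference was as large within each slide, 1.35 on slide 1 and 1.31 on slide 2, although 2 hearts against 2 did not pass there (limma adjusted p of 0.0802 and 0.0848). Agt kept its call without any 1 of the 8 arrays, at log2 fold changes of 1.19 or more.

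**Figure D1:**
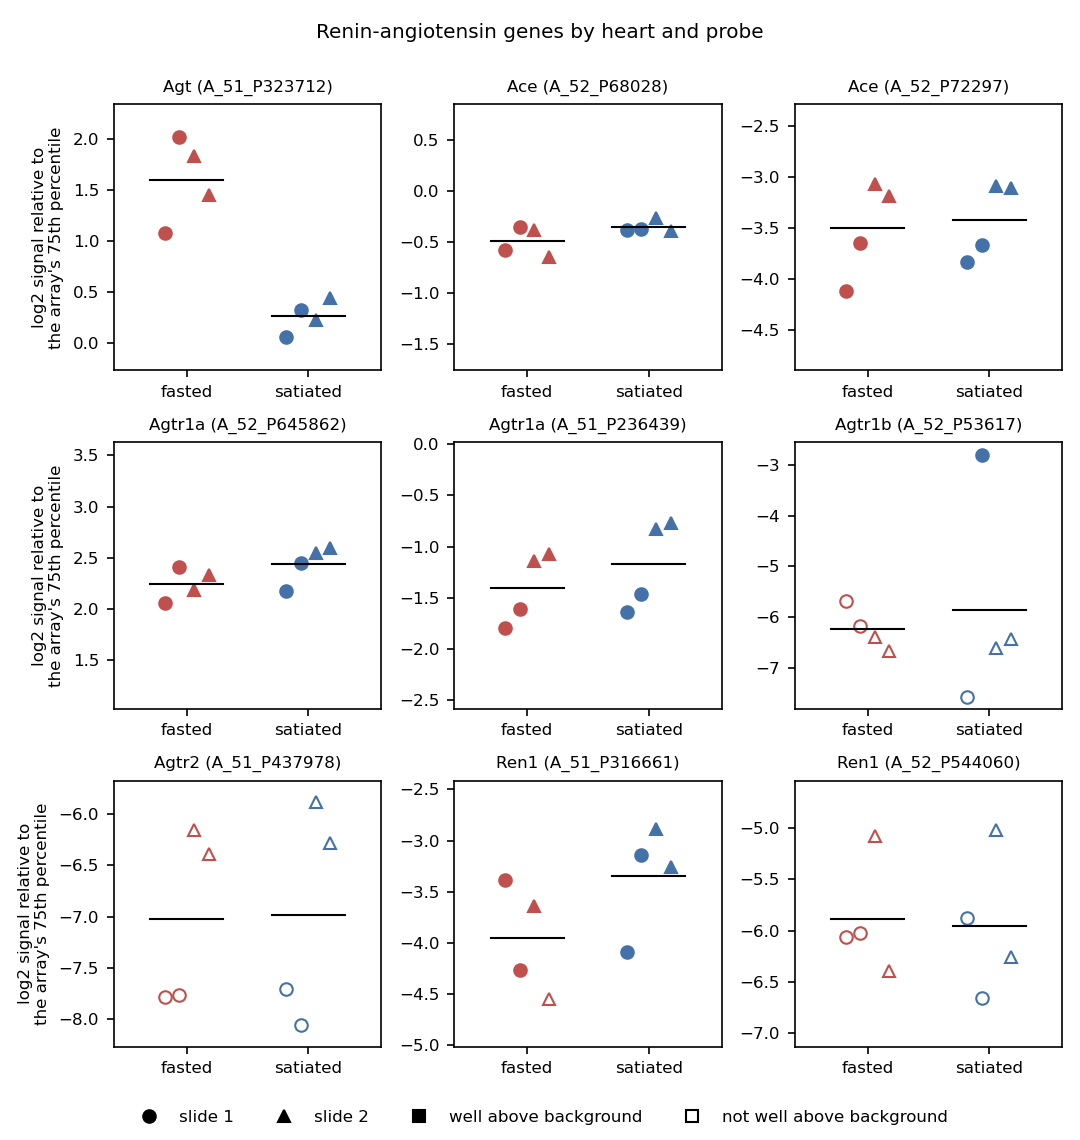
Log2 signal relative to the array's 75th percentile (y axis, with a range of its own in each panel) for the 9 probes of the 6 genes in 4 fasted and 4 satiated hearts. Each point is a heart, circles are slide 1, triangles slide 2, open symbols are not well above background, and black lines are group means; in the Agt panel all 4 fasted hearts lie above all 4 satiated hearts, and in the other panels the groups overlap.

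Marker genes of cells that could bring Agt into the sample were measured on the same arrays. None of the 5 tested adipocyte markers passed, but their log2 fold changes differed in sign: Retn -1.77, Plin1 -1.54, Adipoq -0.03, Cfd 0.22 and Cidec 1.015. The summed adipocyte signal, in multiples of the 75th percentile, ranged from 46.2 to 82.9 in fasted hearts, against 31.3 to 103.2 in satiated hearts. On slide 1 both fasted sums (82.9 and 75.9) lay above both satiated sums (31.3 and 41.4). On slide 2 the groups overlapped, with fasted replicate 3 lowest (46.2) and satiated replicate 4 highest (103.2). Of 4 hepatocyte markers, Apoa1 and Ttr were not well above background on any array. The summed hepatocyte signal was 1.55 in fasted replicate 1, against 0.05 to 0.08 in the other fasted hearts and 0.06 to 0.32 in satiated hearts. The part of these cells in the Agt values was not tested.

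The promoter of Agt is shown because Agt is the gene of the system that changed. RefSeq (GRCm38.p6) places the window from 250 bases before to 50 bases after its start at chr8:124569657-124569956 on the minus strand. Capitals mark the only match to any of 8 motifs searched on both strands, a TATA box.
Agt: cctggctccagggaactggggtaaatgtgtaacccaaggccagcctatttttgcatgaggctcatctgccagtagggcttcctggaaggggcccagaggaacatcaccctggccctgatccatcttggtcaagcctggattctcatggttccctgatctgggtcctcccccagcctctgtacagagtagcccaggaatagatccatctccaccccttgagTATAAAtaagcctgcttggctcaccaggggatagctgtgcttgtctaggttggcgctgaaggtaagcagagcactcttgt

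The 8 motifs and the share of 32851 RefSeq promoter windows of the same length that hold each were as follows. TATAAA, the TATA box, was in 13.6%, and CCAAT in 37.4%. AGAACA, the glucocorticoid receptor half-site, was in 19% and the palindromic site of that receptor in 0.475%. TTGCNNAA, bound by C/EBP factors, was in 10.8%, GTAAACA, bound by FoxO factors, in 3.65%, the NF-kappaB site in 0.411%, and the PPAR site in 0.0396%. Absence of a match says only that these letters are not in this window.

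The stretches from 50 bases before to 10 bases after the start of Ace, Agtr1b, Agtr2 and Ren1 are set beside it for comparison of their core promoters, with the same TATA box on either strand in capitals. The Ace stretch is that of the first of its pair of listed starts, and the promoter of Agtr1a was not analysed here.
Ace, chr11:105967898-105967957, plus strand: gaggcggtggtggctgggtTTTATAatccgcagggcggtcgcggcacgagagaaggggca
Agtr1b, chr3:20367168-20367227, minus strand: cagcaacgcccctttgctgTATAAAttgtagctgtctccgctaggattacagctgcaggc
Agtr2, chrX:21484574-21484633, plus strand: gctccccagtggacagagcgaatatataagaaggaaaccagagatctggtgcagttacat
Ren1, chr1:133350624-133350683, plus strand: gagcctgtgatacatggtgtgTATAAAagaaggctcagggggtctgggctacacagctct
The box began 30 bases before the start in Agt, 31 in Agtr1b and 29 in Ren1, and the Ace match, 31 bases before, read on the opposite strand. The letters of the box, read on either strand, were in 13.6% of all promoter windows. Their part in the level of these genes was not tested.

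Ren1 encodes renin, the protease that starts the cascade, which is made chiefly in the kidney. Its brighter probe had log2 values of -3.38, -4.26, -3.64 and -4.55 in fasted replicates 1 to 4, against -4.09, -3.14, -2.89 and -3.26 in satiated replicates 1 to 4. The signal was well above background on 3 of 4 fasted and 4 of 4 satiated arrays, and the groups overlapped through satiated replicate 1. The log2 fold change of -0.61 ± 0.33 did not pass (limma adjusted p = 0.237), and its 95% interval ran from -1.37 to 0.15. It was -0.21 on slide 1 and -1.02 on slide 2. The second Ren1 probe was not well above background on any array, with values of -6.39 to -5.08 in fasted hearts and -6.66 to -5.02 in satiated hearts.

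Ace encodes angiotensin-converting enzyme, which sits on the surface of endothelial cells. Its brighter probe read -0.58, -0.36, -0.38 and -0.65 in fasted replicates 1 to 4, against -0.38, -0.37, -0.26 and -0.40 in satiated replicates 1 to 4. The hearts lay close together in both groups, and the groups overlapped. The log2 fold change was -0.14 ± 0.11 (limma adjusted p = 0.451) with a 95% interval of -0.40 to 0.12. Second probes were read from a fit in which each of 26480 probes kept by the filter stood on its own and 21.1% were called. There the second Ace probe did not pass, at -0.08 ± 0.27 (limma adjusted p = 0.88). None of 7 endothelial markers passed, and their summed signal was 55.2 to 73.4 in fasted hearts and 51.0 to 66.9 in satiated hearts.

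Agtr1a encodes the main AT1 receptor of the mouse. Its brighter probe had log2 values of 2.06, 2.41, 2.18 and 2.33 in fasted replicates 1 to 4, against 2.18, 2.45, 2.55 and 2.59 in satiated replicates 1 to 4. The groups overlapped on slide 1, whereas on slide 2 both fasted hearts lay below both satiated hearts. The log2 fold change was -0.20 ± 0.14 (limma adjusted p = 0.368, 95% interval -0.51 to 0.12), with -0.08 on slide 1 and -0.31 on slide 2.

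The second Agtr1a probe gave a similar difference, -0.23 ± 0.26 (limma adjusted p = 0.58). Blocking on slide in limma gave -0.23 ± 0.09, with an unadjusted p of 0.0355 and an adjusted p of 0.0813, which did not pass either, in a fit that called 37.1% of probes. This dimmer probe read higher on slide 2 in both groups: fasted hearts averaged -1.11 on slide 2 and -1.70 on slide 1, and satiated hearts -0.80 and -1.55. The second Ace probe showed the same order, with fasted means of -3.13 on slide 2 and -3.88 on slide 1. On these slides the median signal of the negative control spots was 136 to 150 on slide 2 and 28.5 to 30 on slide 1; its part in the difference was not tested.

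AT1 receptors are made by fibroblasts and by cells around vessels. Of 6 fibroblast markers 1 rose, Dcn (0.56), and 3 fell, Tcf21 (-0.63), Lum (-1.48) and Col1a1 (-1.68), given as log2 fold changes. The summed signal of the 6 was 488.4 to 631.3 in fasted hearts, against 426.2 to 485.3 in satiated hearts. Every fasted sum lay above every satiated one, but the brightest probes weigh most in such a sum. It therefore does not stand for the markers that fell. Of 8 pericyte and smooth muscle markers none rose and 2 fell, with summed signals of 106.3 to 131.7 in fasted hearts and 113.5 to 130.2 in satiated hearts. The part of these cells in the Agtr1a values was not tested.

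Agtr1b, the second AT1 receptor gene, was well above background in 1 heart of 8, satiated replicate 2. Its log2 values were -5.67, -6.18, -6.39 and -6.67 in fasted replicates 1 to 4, against -7.57, -2.80, -6.61 and -6.43 in satiated replicates 1 to 4. The single high array read 99.3 in unscaled intensity, against 2.91 to 11.7 on the other 7, and its scaled signal was 7.34 times that of the next highest array. The fasted mean was -6.23, against a satiated mean of -5.85 with this heart and -6.87 without it, so 1 array decided which group looked higher. No fold change is given because no fasted heart was well above background.

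Agtr2 encodes the AT2 receptor, a gene of the fetus that is scarce in most adult tissues. Its probe was not well above background in any of the 8 hearts. The values ran from -7.78 to -6.15 in fasted hearts and from -8.06 to -5.88 in satiated hearts, so a difference was not detectable on these arrays.

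Other genes of the pathway were read from 6 lists, which hold 95 genes, 79 of them tested. Of these 12 rose, 8 fell and 59 did not pass, which is 25.3% called, beside the 20.2% of all genes and probes. The median log2 fold change over the 79 was 0.13, and over everything tested it was 0.00. The lists, chosen with earlier results of these data known, are described by these counts, without a test of their own. Mas1, among the 8 that fell, entered through the satiated group alone.

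Peptidases that make or destroy angiotensins moved in both directions. Of 15 tested, 2 rose, 3 fell and 10 did not pass, with a median log2 fold change of -0.32. That is 33.3% called, beside 20.2% of all genes and probes. Enpep, aminopeptidase A, which shortens angiotensin II to angiotensin III, read -0.38, -0.20, -0.65 and -0.61 in fasted replicates 1 to 4, against 0.31, 0.64, 0.14 and 0.66 in satiated replicates 1 to 4. It fell by 0.90 on the log2 scale with an SE of 0.17, or 1.86-fold (limma adjusted p = 0.00876), and the groups did not overlap. Nln, neurolysin, a peptidase that cleaves angiotensin I and neurotensin, rose by 0.97 ± 0.12 (limma adjusted p = 0.00174), while its second probe gave 0.17 ± 0.15 and did not pass (limma adjusted p = 0.475). Dpp3, a dipeptidyl peptidase that degrades angiotensin II, fell by 0.47 on the log2 scale with an SE of 0.12 (limma adjusted p = 0.0306). Leaving out any single array except fasted replicate 3 ended the Dpp3 call.

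Rnpep, an aminopeptidase named after its values were seen, was the other peptidase that fell, with a log2 fold change of -0.64 ± 0.18 (limma adjusted p = 0.0398). The chymases Cma1 and Mcpt4, mast cell proteases that can form angiotensin II, had values of -0.25 ± 0.19 and -0.87 ± 0.28 and did not pass. The difference of Mcpt4 was -0.79 on slide 1 and -0.95 on slide 2 without overlap of the groups, and it passed with slide or replicate number as a block (limma adjusted p = 0.00146 and 0.00843). Blocking on replicate number in limma called 8 of the 15 peptidases, in a fit that called 32.1% of all genes and probes. Without a block the number was 5 with all 8 arrays. It was 3 without fasted replicate 1 or 4 and 2 without satiated replicate 1, 2 or 4.

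Among 6 tested receptors and receptor partners, 5 did not pass and 1 did (16.7%, beside 20.2% of all genes and probes), Mas1. Its log2 values were -6.52, -6.88, -6.34 and -5.29 in fasted replicates 1 to 4, against -5.39, -4.95, -4.16 and -4.03 in satiated replicates 1 to 4. Mas1 was not well above background in any fasted heart, and in all 4 satiated hearts it was, so it entered the test through the satiated group alone. The measured mean was -6.26 in fasted hearts and -4.63 in satiated hearts. The limma adjusted p of 0.0267 belongs to this measured difference, which rests on fasted values that were not well above background. Against the lowest signal well above background, Mas1 was at least 1.29-fold lower in fasted hearts, a bound without a test of its own. With normexp background correction the log2 difference was -0.22 and did not pass (limma adjusted p = 0.365). The groups overlapped by 1 heart, and a second Mas1 probe was well above background on 1 array. The call was lost without 6 of the 8 arrays in turn, that is, without any but fasted replicate 4 or satiated replicate 1 (adjusted p of 0.051 to 0.0717). Atp6ap2, the prorenin receptor, and Agtrap, which promotes uptake of the AT1 receptor into the cell, had values of 0.16 ± 0.10 and -0.13 ± 0.11.

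**Figure D2:**
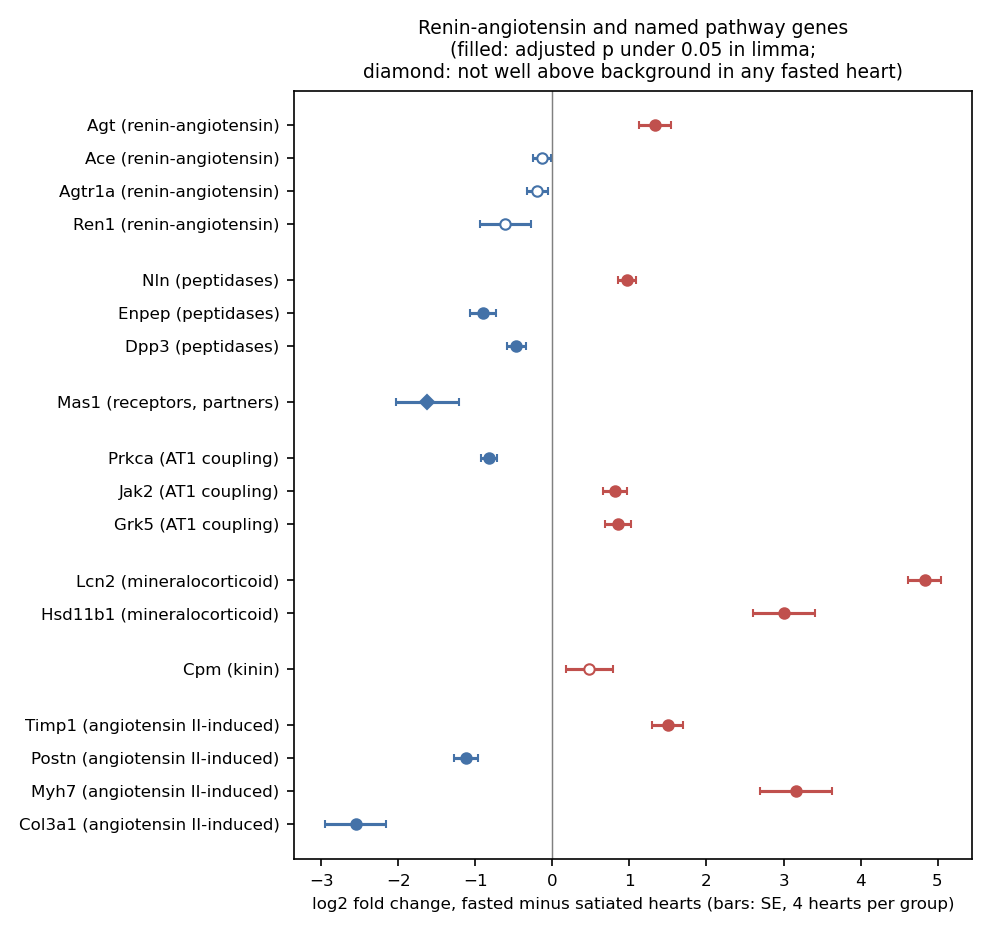
Log2 fold change, fasted minus satiated (x axis, bars are SE, 4 hearts per group), of the 4 tested renin-angiotensin genes and of the genes named from each pathway list. Filled symbols passed an adjusted p under 0.05 in limma; Agt and Nln lie to the right of 0, Enpep and Mas1 to the left, and the Mas1 diamond is not well above background in any fasted heart.

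Of 26 tested genes that couple the AT1 receptor to the cell, 2 rose, 1 fell and 23 did not pass. That is 11.5% called, beside 20.2% of all genes and probes. Gnaq and Gna11, the G proteins through which the receptor mainly acts, had values of 0.02 ± 0.11 and 0.13 ± 0.12. Grk5, a kinase that desensitises G protein-coupled receptors, rose by 0.85 ± 0.17 (limma adjusted p = 0.0104), and its second probe gave 0.86 ± 0.17. Jak2, a tyrosine kinase that binds the AT1 receptor, rose by 0.82 ± 0.16 (limma adjusted p = 0.0094), while its second probe gave 0.67 ± 0.22 and did not pass (limma adjusted p = 0.0657). Prkca, protein kinase C alpha, fell by 0.83 on the log2 scale with an SE of 0.11 (limma adjusted p = 0.00213), and the value was -0.49 with normexp background correction (limma adjusted p = 0.00925). Blocking on slide in limma called 7 of the 26, where 35.5% of all genes and probes were called, and blocking on replicate number called 8, where 32.1% were.

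Among genes of aldosterone and its receptor, 6 of 11 were tested, and 2 of them rose (33.3% called, beside 20.2% of all genes and probes). Nr3c2, the mineralocorticoid receptor, had a value of 0.22 ± 0.16 and did not pass. Its means of -4.29 in fasted and -4.51 in satiated hearts lay near the lowest signal well above background on slide 2 (-4.47 to -4.22). Hsd11b1, the enzyme that regenerates active glucocorticoid inside cells, had log2 values of 4.34, 4.05, 5.72 and 4.79 in fasted replicates 1 to 4, against 1.44, 1.09, 2.31 and 2.03 in satiated replicates 1 to 4. It rose by 3.01 ± 0.40, or 8.03-fold (limma adjusted p = 0.00239), and every fasted heart lay above every satiated heart. Lcn2, an iron-siderophore binding lipocalin and a known target of the mineralocorticoid receptor in the heart, averaged 0.63 ± 0.20 in fasted hearts, against -4.21 ± 0.41 in satiated hearts, where 2 of 4 arrays were well above background (SD, n = 4 each). Its log2 fold change was 4.83 ± 0.21 (limma adjusted p = 5.88e-05), and it was 3.34 with normexp background correction. Cyp11b2, aldosterone synthase, did not pass the filter on dim probes.

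Of 8 kallikrein and kinin genes 3 passed the filter, and limma called 0 of them, beside 20.2% of all genes and probes. At an unadjusted p under 0.05 limma called 0 of them as well. Both bradykinin receptors, Bdkrb1 (0.04 ± 0.19) and Bdkrb2 (0.07 ± 0.43), were among the 3. The Bdkrb2 means, -5.39 in fasted and -5.46 in satiated hearts, lay below the lowest signal well above background on slide 2 (-4.47 to -4.22). The smallest p belonged to Cpm, a carboxypeptidase that trims kinins, at 0.48 ± 0.30 (limma adjusted p = 0.313). Leaving out fasted replicate 3 brought Cpm to 0.16, and the slides gave 0.14 (slide 1) and 0.82 (slide 2).

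Genes that are known to rise with angiotensin II were split. Of 23 tested 6 rose, 3 fell and 14 did not pass, with a median log2 fold change of 0.29. That is 39.1% called, beside 20.2% of all genes and probes (9.82% higher and 10.3% lower in fasted hearts). Of those that rose, Myh7, the slow myosin heavy chain, had a log2 fold change of 3.16 ± 0.47, or 8.96-fold. Timp1, an inhibitor of matrix proteases, rose 2.82-fold (limma adjusted p = 0.00239). The 3 that fell were genes of the matrix: the collagens Col3a1 (-2.56 ± 0.40) and Col1a1 (-1.68 ± 0.41) and Postn, periostin (-1.12 ± 0.15). Nppa, the atrial natriuretic peptide, did not pass, at 0.14 ± 0.12.

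**Figure D3:**
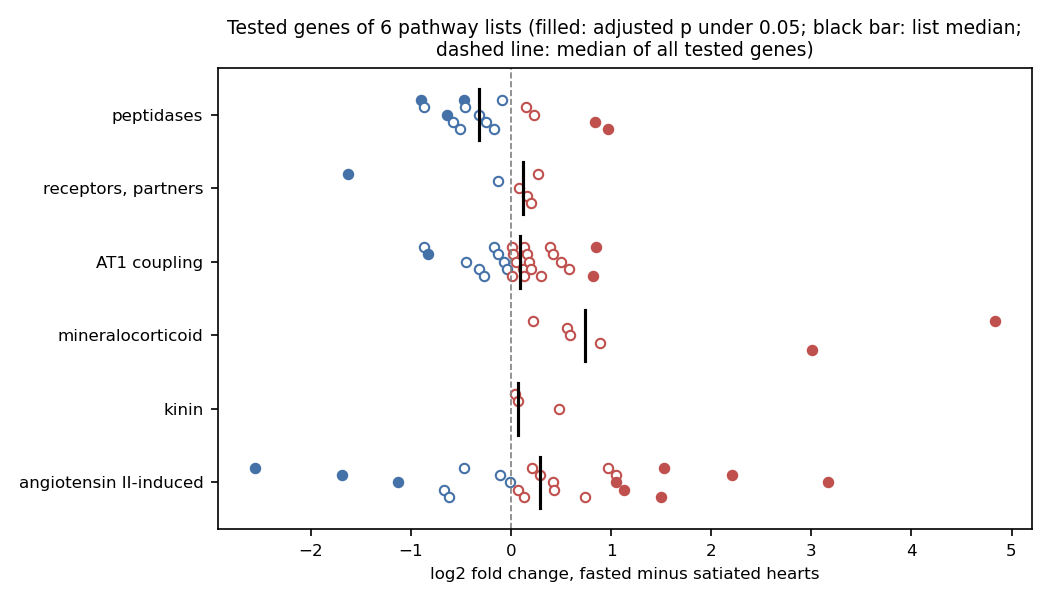
Log2 fold change, fasted minus satiated (x axis), of every tested gene of the 6 pathway lists, each point a gene, with black bars at the list medians and a dashed line at the median of all tested genes and probes. Filled points passed an adjusted p under 0.05 in limma; called peptidases and angiotensin II-induced genes lie on both sides of 0, and none of the 3 kinin genes is filled.

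The genes whose pattern over the 8 hearts was most like that of each measured member were found as those with the smallest root mean square difference after each gene was centred on its own mean. For Agt these were 1700018L02Rik (0.149 on the log2 scale), Ppil6 (0.191) and Igfbp3, a binding protein of insulin-like growth factors (0.204), where the median named gene differed by 0.79. Igfbp3 had a log2 fold change of 1.33 ± 0.15 and, like Agt, was highest in fasted replicate 2, a likeness for which it was picked. For Ace they were Tln2 (0.0474), Chmp5 (0.0474) and Mfap5 (0.0548), where the median named gene differed by 0.342. For Agtr1a they were Gypc (0.0726), Krba1 (0.0778) and Lgals3bp (0.0784), where the median was 0.369. Ace and Agtr1a themselves varied little, with SDs over the 8 arrays of 0.13 and 0.19, against 0.77 for Agt. None of the 6 genes nearest to Ace or Agtr1a passed the test. Ren1 had no close match, with Ifi27 (0.33), Isg15 (0.341) and Ptprz1 (0.349) the nearest, set against a spread of Ren1 itself of 0.59 (SD over the 8 arrays). All of these genes were picked for likeness on these same arrays, so whether they passed follows from the choice and is no separate evidence. The points share the same arrays and slides, so these differences describe the profiles only.

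**Figure D4:**
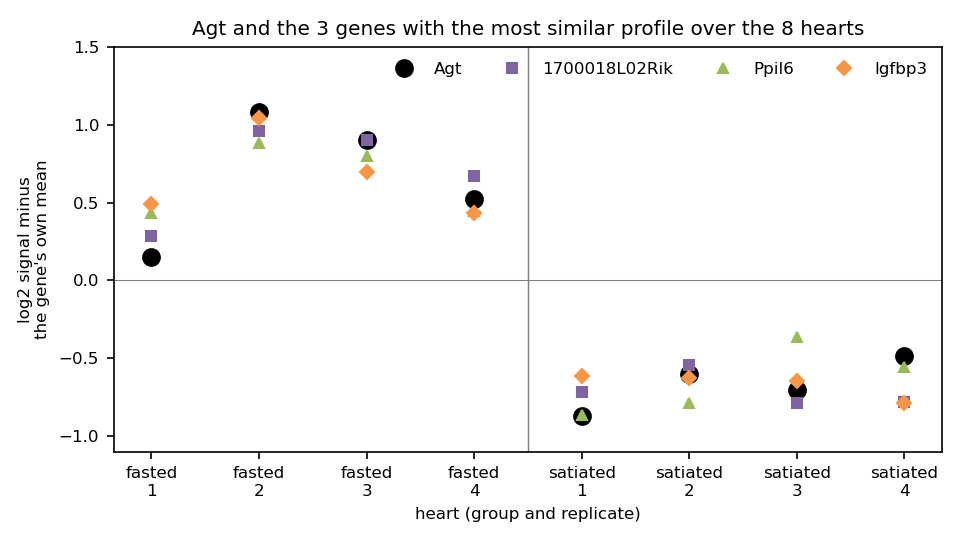
Log2 signal minus the gene's own mean (y axis) in each of the 4 fasted and 4 satiated hearts (x axis) for Agt and the 3 named genes with the most similar profile. In all 4 fasted hearts the 4 genes lie above 0 and in all 4 satiated hearts below it, and Agt is highest in fasted replicate 2. The 3 genes were picked for this likeness on the same arrays.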

How the data were processed

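Scanner files of 8 arrays hold spot intensity on a linear scale, background-subtracted on each array and not normalized between arrays, per the file headers, which name Agilent Feature Extraction 10.5.1.1 for slide 1 and 10.7.3.1 for slide 2 (9.1 per the submitters' processing notes). A deposited table of linear ratios by the authors, made in a way not given in the sources used here, served as an alternative. Its values were used as they stand; column medians were 0.86 to 1.02, its direction was that of the scanner values, and its centring per probe and its scaling stay unknown.

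From the processed intensity, log2 values were averaged over a probe's spots without the 1639 control spots and outlier spots, and each array's 75th percentile was subtracted. Probes well above background on at least 4 arrays were kept, and a gene was read from its brightest kept probe. Names came from RefSeq accessions (GRCm38.p6), which gave a symbol for 26690 of 41174 probes. Groups were compared with limma 3.58.1 (R 4.3.3, the data.table package, version 1.17.8), two-sided, at a Benjamini-Hochberg adjusted p under 0.05; second probes were read from the same fit on every kept probe, and probes left out by the filter were given as values without a test. The fit without a block was also run on simulated data with independent noise on each array and no slide effect. Such data cannot show how the slides affect the calls. Figures were drawn with matplotlib 3.10.9.

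Named were all 6 genes with every probe, for each list up to 4 called genes of smallest p or else the 1 of smallest p, and the 3 nearest profiles; other genes in the text were picked after their values were seen. A gene that this rule names is not reported here. The genes and lists were chosen with earlier results of these data known. Same-numbered hearts of the groups deviated together from their group means (correlations of 0.439, 0.475, 0.331 and 0.493 across genes, which are not replicates), as did other hearts of the same slide (0.291 to 0.522). The pairing therefore comes from the data and goes with the slide, and 4 and 4 hearts were also fitted with the replicate number as a block. Alternatives were blocks for slide or number, each slide alone, quantile normalization, normexp on the median signal (the mean signal was not in the files used), other filters and probe rules, the deposited ratios and each array left out.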

Additional observations from a re-analysis of the deposited data

Results flagged for a closer look

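Among the values by heart of the 9 probes and of the named pathway genes, 1 group of 4 hearts held a heart that stood apart. Grk5 was 2.36 in fasted replicate 3, with the other fasted hearts between 1.71 and 1.75, a gap of 0.94 of the whole range, which is above the critical value of Dixon's test. Of 48 groups of 4 looked at, chance flags about 1 in 20.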

How the results depend on the processing

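Agt kept its direction under all 19 alternatives, at log2 fold changes of 1.19 or more, and its call under 17; it did not pass with 2 hearts per group, on slide 1 (1.354) or slide 2 (1.305). Ace (-0.19 to -0.09), Agtr1a (-0.31 to -0.08) and Ren1 (-1.02 to -0.18) kept their direction and passed under none of theirs. The count of 4073 changed genes and probes was 7177 with the slide as a block, 6486 with the replicate block, 1883 on slide 1, 1 on slide 2 and 2225 without the filter on dim probes. It was 2495 to 3690 without 1 array, with 2520 without satiated replicate 2 and 2495 without satiated replicate 4. The replicate block gave 8 called peptidases and 8 AT1 coupling genes and gave Mcpt4 a call, and it changed no other call of a gene named from the lists. The slide block gave 7 AT1 coupling genes. Slide 1 gave 2 peptidases and 4 angiotensin II-induced genes; slide 2 gave 0 in the lists of peptidases, receptor partners, AT1 coupling, mineralocorticoid and angiotensin II-induced genes. Without the filter 2 peptidases and 0 receptor partners were called; receptor partners were also 0 with normexp and with a signal on all 8 arrays, and 2 as the mean of a gene's probes. Leaving out 1 array gave 2 to 5 peptidases, 0 to 1 receptor partners, 3 AT1 coupling, 2 to 3 mineralocorticoid, 0 kinin and 6 to 9 angiotensin II-induced genes. Mas1 moved from -1.62 to -0.22 with normexp (adjusted p = 0.365). Some of these fits used fewer hearts or tested more genes, and the cause of the differences was not tested. The signal over background limits Agtr1b, Agtr2, Ren1, Mas1, Lcn2, Bdkrb2 and Nr3c2.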

Other observations

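Other listed angiotensin II-induced genes that rose were Ccn2, a matricellular growth factor (2.21 ± 0.41), Nppb, the B-type natriuretic peptide (1.53 ± 0.26), Hbegf, a ligand of the EGF receptor (1.12 ± 0.32), and Rcan1, an inhibitor of calcineurin (1.05 ± 0.27), given as log2 fold changes ± SE.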
